A study of Mus musculus with 2 samples.

Results

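The genes described here are 36 listed members of the p53 pathway, and the measurement is the position of Hnf4a binding sites in and around them. The rule took each listed protein-coding gene of the RefSeq annotation, so the list is 36 of 21887 protein-coding genes, and all 36 were found. The genes were put into 5 function groups for description: 5 for p53 itself and its regulators (feedback), 8 of arrest and growth control, 13 of apoptosis, 4 of DNA repair and nucleotide supply, and 6 other targets. The list was chosen by pathway with earlier counts of the same data known, and it extends a shorter p53 list selected on its share of genes with a shared site within 10 kb. Every count of genes and share of summits below is therefore a description, and no test of the list was made. Hnf4a was mapped by ChIL-seq, in which a probe bound to the antibody directs Tn5 transposase to tag nearby DNA and the tagged DNA is transcribed in the fixed cells. The cells were iHepCs, hepatocyte-like cells that a retroviral vector carrying Foxa2 and Hnf4a turns out of embryonic fibroblasts, here of wild-type C57BL/6J mice, so the factor mapped is also a factor that was introduced. Their medium held dexamethasone (100 nM), epidermal growth factor (20 ng/ml) and hepatocyte growth factor (20 ng/ml). There is 1 group with 2 replicates, which the series text calls biological, and the peak names place both in the same numbered lot of cells. No control samples and no expression data were analysed here, so the identity of the cells could not be checked against marker genes.

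The deposited lists hold 21283 summits in replicate 1 and 24097 in replicate 2. A summit is the 1-bp peak of a site in build mm10, with a score that is the −log10 of the authors' q-value; the lists' median scores were 7.32 and 6.67. Summits of both replicates within 100 bp were joined into a shared region, and 9193 regions were shared. Read depth is unknown from these lists, and whether depth bears on the sites seen in 1 list alone was not tested.

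The transcription factor p53, encoded by Trp53, is stabilised by DNA damage and other stress and then switches on genes that halt the cell cycle, repair DNA, or trigger apoptosis. It also switches on its own inhibitors, of which Mdm2, a ubiquitin ligase that marks p53 for destruction, is the best known. In reprogramming of fibroblasts, p53 and its target p21, encoded by Cdkn1a, are known as barriers to induced pluripotency. Hnf4a is a nuclear receptor that maintains hepatocyte identity and restrains hepatocyte proliferation.

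The stretches before the starts of Ddit4, Ccng1 and Tigar are shown because each holds a shared region, and the stretch before the first listed start of Cdkn1a because it carries motifs of p53 and no summit; the Cdkn1a stretch was chosen after its values were seen. Each is the 250 bases before the gene start, 5′ to 3′ on the gene's strand, from RefSeq, build GRCm38.p6. In the first 3, capitals run from the summit of 1 replicate to that of the other. In Cdkn1a, capitals mark matches to the p53 decamer, the 10-base unit that p53 binds as a pair.
Ddit4, chr10:59951771-59952020, minus strand: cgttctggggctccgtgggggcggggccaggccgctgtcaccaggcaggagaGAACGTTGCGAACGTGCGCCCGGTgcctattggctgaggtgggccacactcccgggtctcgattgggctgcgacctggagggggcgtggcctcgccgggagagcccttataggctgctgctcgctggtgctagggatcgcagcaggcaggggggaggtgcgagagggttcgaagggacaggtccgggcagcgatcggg
Ccng1, chr11:40755287-40755536, minus strand: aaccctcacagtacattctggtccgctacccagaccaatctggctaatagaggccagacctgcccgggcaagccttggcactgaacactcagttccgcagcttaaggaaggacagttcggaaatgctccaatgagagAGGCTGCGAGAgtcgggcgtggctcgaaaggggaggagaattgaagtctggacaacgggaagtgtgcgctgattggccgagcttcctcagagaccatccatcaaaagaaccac
Tigar, chr6:127109553-127109802, minus strand: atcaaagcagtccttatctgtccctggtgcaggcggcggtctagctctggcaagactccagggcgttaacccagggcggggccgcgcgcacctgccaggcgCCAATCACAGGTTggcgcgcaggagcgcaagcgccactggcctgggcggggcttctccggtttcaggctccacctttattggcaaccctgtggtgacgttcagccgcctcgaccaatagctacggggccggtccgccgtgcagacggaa
Cdkn1a, chr17:29090729-29090978, plus strand: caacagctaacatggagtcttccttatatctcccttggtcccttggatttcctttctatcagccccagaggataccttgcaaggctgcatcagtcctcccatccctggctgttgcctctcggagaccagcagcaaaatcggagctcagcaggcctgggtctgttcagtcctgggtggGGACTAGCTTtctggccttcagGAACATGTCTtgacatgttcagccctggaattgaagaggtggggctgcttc

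In Ddit4 the summits lay 198 bases before the start in replicate 1 and 175 before it in replicate 2, in Ccng1 113 and 103 bases, and in Tigar 149 and 137 bases. The G and C content was 70.0% in Ddit4, 55.2% in Ccng1 and 65.6% in Tigar, against a median of 55.6% over the windows of all protein-coding genes. The RefSeq table gave start windows, from 250 bases before to 50 after a start, for 28 of the 36 genes, 37 windows in all, and for 17492 of all protein-coding genes, 21263 windows. In 11 of the 28 genes a window held a summit or lay within 500 bp of a shared region, and in 4 of these the region was shared, the fourth being Sesn1. This was not counted over all genes, so whether these counts are usual is not known. Motifs were searched on both strands, with overlapping matches kept. The HNF4 motif was in none of the 37 windows, as CAAAGTCCA (0.452% of all windows) or as CAAAGTTCA (0.357%), and neither was a direct repeat of AGGTCA with 1 base between the copies (0.047%). The Foxa motif was in 4 windows as TGTTTAC (10.8%, against 3.01% of all windows) and in 2 as TGTTTGC (5.41%, against 4.58%), and the AP-1 motif TGANTCA was in 2 (5.41%, against 6.99%). The p53 decamer was in 12 windows (32.4%, against 7.37%), in a list chosen as p53 targets. In Ccng1 this decamer began 185 bases before the start, apart from the shared region, and in the printed stretch of Cdkn1a 2 copies began 73 and 51 bases before it. These matches describe letters in a short window and do not locate binding.

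Shared Hnf4a regions lay within 10 kb of an end of 20 of the 36 genes (55.6%), among them Trp53, Mdm2 and Cdkn1a, against 20.6% of all protein-coding genes. Inside the gene itself 8 had one (22.2%, against 13.7% of all), and within 50 kb of an end 29 had one (80.6%, against 46.8%). The replicates taken alone gave 29 genes in replicate 1 (80.6%, against 39.4% of all genes) and 31 in replicate 2 (86.1%, against 41.9%) within 10 kb. Inside the gene they gave 14 (38.9%, against 26.3%) and 11 (30.6%, against 28.4%), and within 50 kb 36 (100%, against 69.3%) and 35 (97.2%, against 72.4%). Gene length was similar, with medians of 17296 bp in the 36 genes and 17169 bp in all genes. Of the 20 genes, 15 had 1 shared region within 10 kb, 4 had 2 and 1, Polk, had 3. Of the 26 regions, 8 lay inside the gene and 18 outside it, and 13 lay within 10 kb of another protein-coding gene as well.

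**Figure D1:**
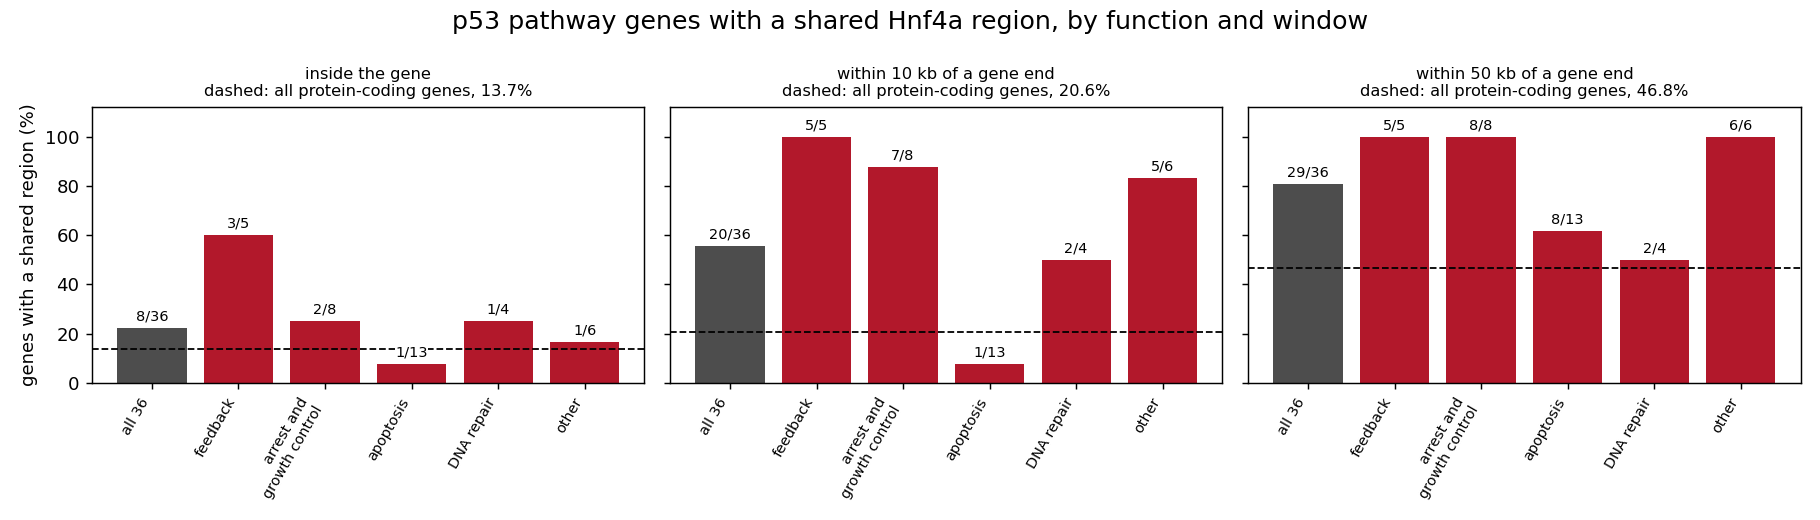
Bars give the percentage of genes with a shared Hnf4a region in all 36 genes (grey) and in each function group (red), with counts above them; panels are the 3 windows and dashed lines the share of all protein-coding genes. Within 10 kb, feedback genes stand at 5 of 5 and apoptosis genes at 1 of 13.

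Within 10 kb of a gene end, where 20.6% of all genes had a shared region, 5 of 5 feedback genes had one, 7 of 8 arrest genes (87.5%), 1 of 13 apoptosis genes (7.69%), 2 of 4 repair genes (50.0%) and 5 of 6 other targets (83.3%). Within 50 kb, where 46.8% of all genes had one, all feedback genes, arrest genes and other targets did, 8 of 13 apoptosis genes (61.5%) and 2 of 4 repair genes (50.0%). The apoptosis genes were below the share of all genes at 10 kb and above it at 50 kb, each time by few genes. At a sharing distance of 200 bp, 3 of 13 had a shared region within 10 kb, against 24.0% of all genes. In single lists within 10 kb, 6 of 13 had a summit in replicate 1 (46.2%, near the 39.4% of all genes). In replicate 2, 9 of 13 had one (69.2%, against 41.9%). All 5 feedback and all 8 arrest genes had a summit in each list. No test of the groups was made, since they hold few genes each and were formed with some values known.

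Among the feedback genes, Trp53 had a shared region inside the gene, 1064 bp after its start on chromosome 11 (69581419 to 69581428). Its score was 8.20 in replicate 1 and 9.08 in replicate 2, so both libraries gave it much the same weight. A further summit 766 bp before the start was found in replicate 2 alone (12.1); it lies inside Wrap53, the neighbour on the other side of the start. Mdm2 had a shared region 571 bp after its start, inside the gene (13.1 in replicate 1 and 12.7 in replicate 2; mean 12.9 ± 0.289, SD, n = 2). Mdm2 is known to have an internal promoter in its first intron that p53 drives, and the distance between that promoter and the region was not measured. Before the Mdm2 start lay 2 more regions, at 7033 bp (13.5 and 7.83) and at 10950 bp (16.1 and 11.6), both scored higher in replicate 1. The best-scored region within 50 kb of Mdm2 was 46596 bp before the start (28.7 and 28.4) and inside Nup107, a nucleoporin gene.

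Mdm4, a relative of Mdm2 that blocks p53 activity, had no summit inside the gene. Its nearest shared region lay 3591 bp before the start (13.2 in replicate 1 and 13.5 in replicate 2). Another lay 27397 bp before the start, inside Pik3c2b (21.3 and 23.0). Both regions scored close in the 2 libraries. Ppm1d encodes the phosphatase Wip1, which switches the p53 response off. It had a shared region 28635 bp after its start, inside the gene (9.15 and 15.3). Another lay 5741 bp beyond its end and 298 bp from Bcas3 (10.0 and 4.86), where the order of the libraries turned round. At the Ppm1d start each library had its own summit, too far apart to count as shared. They lay 254 bp before it in replicate 1 (4.70) and 79 bp before it in replicate 2 (3.55). Ccng1 encodes cyclin G1, which recruits a phosphatase to Mdm2. The region at its start scored 15.4 in replicate 1 and 7.20 in replicate 2, the higher score being that of replicate 1.

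Among arrest genes, Cdkn1a encodes p21, the inhibitor of cyclin-dependent kinases through which p53 halts the cycle. It has 2 listed starts, and the shared region lay 1524 bp after the second, inside the gene on chromosome 17 (29095283 to 29095304). The score was 8.99 in replicate 1 and 28.6 in replicate 2, the largest gap between the libraries among the 27 shared regions in or within 10 kb of the 36 genes. Replicate 2 alone had 2 more summits, 43 bp after the second start (5.85) and 468 bp beyond the gene's end (8.52). The first start, whose printed stretch carries the p53 decamers, had no summit in its window. Gadd45a, a stress sensor in arrest and repair, had a shared region inside the gene, 1927 bp after its start (11.3 and 7.61). Its start itself had a summit in replicate 2 alone, 232 bp before it (8.86).

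The sestrins, stress-induced inhibitors of growth signalling, each had a shared region before the start. That of Sesn1 lay 741 bp before it (8.84 in replicate 1 and 8.25 in replicate 2) and inside the neighbour Cep57l1. That of Sesn2 lay 5272 bp before it (11.7 and 17.8). Ddit4, another inhibitor of growth signalling, scored 7.30 and 11.1 at the region printed above. The Sesn1 scores were close, while those of Sesn2 and Ddit4 were higher in replicate 2. Plk3, a stress-response kinase, had regions 2120 bp before its start (10.7 and 15.8) and 8291 bp beyond its end (11.6 and 16.6), both scored higher in replicate 2. The region beyond the end lay inside Btbd19. Btg2, which restrains proliferation, had a weak region 9220 bp beyond its end (4.42 and 7.20) and, 65 bp before its start, a summit of replicate 2 alone (5.77). Plk2, the remaining arrest gene, had 1 summit of each list within 10 kb that did not coincide (7.79 in replicate 1 and 4.14 in replicate 2).

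Of the 13 apoptosis genes, 1 had a shared region within 10 kb and 8 within 50 kb. Perp, a membrane protein of epithelial junctions that p53 induces in apoptosis, was the 1 within 10 kb, with a region 169 bp outside its lower-coordinate end (5.16 in replicate 1 and 8.04 in replicate 2). A stronger region lay 19300 bp from the gene (33.3 and 25.5). Apaf1, the scaffold of the apoptosome, had a weak region 20242 bp after its start, inside the gene (7.70 and 3.85). Another lay 41369 bp before the Apaf1 start (19.5 and 19.6), only 66 bp from Slc25a3. Close to the Apaf1 start, 288 bp before it, replicate 2 alone had a summit (6.89). Both Perp and Apaf1 thus had their better-scored shared region farther away.

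The direct mitochondrial effectors had none within 10 kb. Bax, which permeabilises mitochondria, had a summit of replicate 2 alone 757 bp from its end (6.68) and no shared region within 50 kb. Bbc3, which encodes Puma, had a summit of replicate 2 alone 4454 bp from its end (2.95). Its 3 shared regions within 50 kb began 22083 bp away (21.5 in replicate 1 and 17.1 in replicate 2), and all lay inside the neighbour Ccdc9. Pmaip1, which encodes Noxa, had no summit of either list within 10 kb and a shared region at 16144 bp (19.4 and 30.3). Bbc3 and Pmaip1 thus had well-scored sites only at a distance, and those of Bbc3 were inside another gene.

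The death receptor Fas had no shared region within 50 kb and 1 summit of replicate 1 alone inside the gene (5.34). Tnfrsf10b, the mouse TRAIL receptor, had a summit of replicate 2 alone at 3555 bp (11.3) and a shared region at 26577 bp (10.0 and 8.16), nearer to Chmp7. Eda2r, a receptor of the same family, had a summit of replicate 1 alone (4.20). Ei24, a protein of the endoplasmic reticulum, had its shared region just outside the 10 kb window, at 11238 bp (18.8 and 14.3), nearer to Stt3a. Phlda3, which restrains Akt, had the best-scored summit of 1 list among the genes without a close shared region, 7451 bp before its start in replicate 1 (16.4). Its shared region at 19923 bp (10.5 and 6.07) lay inside Tnni1.

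Pidd1 and Trp53inp1 came near to a shared region. Pidd1, which activates caspase-2, had summits 170 bp apart, 684 bp from its end in replicate 1 (8.90) and 854 bp in replicate 2 (4.04). Both lay inside the neighbour Slc25a22. Trp53inp1, a p53-induced regulator of autophagy and apoptosis, had summits 131 bp apart, one scored 9.60 in replicate 1 (8636 bp away) and one 10.9 in replicate 2 (8505 bp away). These pairs would be shared at a distance of 200 bp, which raises the apoptosis count to 3 of 13. That count lies near the share of all genes at this distance, 24.0%. Aen, a nuclease that promotes apoptosis, had a summit of replicate 1 124 bp before its start (8.43) and 1 of replicate 2 inside the gene (5.87), which were not close to each other.

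Among repair genes, Xpc, the damage sensor of nucleotide excision repair, had the best-scored shared region within 10 kb of any of the 36 genes. It lay 765 bp outside the gene's lower-coordinate end on chromosome 6 (91488539 to 91488541) and scored 32.2 in replicate 1 and 36.2 in replicate 2. A weaker region stood 77 bp from the same end (7.60 and 7.64), and 3 more lay between 15657 and 47184 bp away, the farthest of them scored 37.5 and 39.6. Scores of the libraries were close at the first, second and last of these. The RefSeq window table lists no start for Xpc, so these are not placed as promoter or transcript end. The gene nearest to the best-scored close region was Tmem43, at 77 bp, and Tmem43 was also the nearest, at 59 bp, to the region 15657 bp from Xpc (24.2 and 33.5).

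Polk, a polymerase that copies past damaged bases, had 3 shared regions within 10 kb of its first start. They lay 7547 bp before it (20.9 in replicate 1 and 13.0 in replicate 2), 1070 bp after it (9.21 and 12.6) and 8805 bp after it (10.5 and 11.1). An end of Cert1 lies within 10 kb of each, and the region 7547 bp before the Polk start lies inside Cert1. Ddb2, the other damage sensor, and Rrm2b, a subunit of ribonucleotide reductase, had summits within 10 kb in both lists but none shared, and none shared within 50 kb either. Their closest pairs stood 415 bp apart beside Ddb2 (8.15 and 6.04) and 360 bp apart beside Rrm2b (8.47 and 7.89). Both summits of the Ddb2 pair lay inside the neighbour Nr1h3.

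Of the other targets, Tigar, which diverts glucose from glycolysis, had the region printed above, with scores of 5.48 in replicate 1 and 5.63 in replicate 2. It was one of the weakest shared regions, alike in both libraries. Epha2, a receptor kinase for ephrins, had a region inside the gene 9926 bp after its start (16.3 and 10.5), just within the 10 kb window. Gdf15, a secreted stress hormone, had a region 4134 bp beyond its end (10.0 and 10.1) and 3 more up to 49976 bp away. The best scored of these was at 27431 bp, inside Pgpep1 (23.0 and 24.0). For Tap1, the peptide transporter of antigen presentation, and Sulf2, a heparan sulfatase, the nearest gene to the shared region was a neighbour. The Tap1 region (11.0 and 10.6) lay 7148 bp from Tap1 and 106 bp from Tap2, and the Sulf2 region (10.6 and 5.20) lay 825 bp from Sulf2 and inside Ncoa3. Zmat3, an RNA-binding target of p53, had a summit of each list inside the gene, far from each other (8.14 in replicate 1 and 3.85 in replicate 2). Its shared region was at 31229 bp (14.2 and 11.1), 171 bp from Pik3ca. Counting a region only for its nearest gene left 17 of the 36 genes, without Tap1, Sulf2 and Sesn1, against 14.6% of all genes.

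Promoter and interior sites could be compared in the 28 genes with a listed start. Within 1 kb of a start, 5 of the 28 genes had a shared region (17.9%, against 8.83% of all genes with a listed start): Mdm2, Ccng1, Sesn1, Ddit4 and Tigar. Trp53 at 1064 bp and Polk at 1070 bp fell just outside that limit, and Sesn1 at 741 bp was the farthest inside it. Summits of replicate 1 were found at 9 of the 28 starts (32.1%, against 18.2%) and of replicate 2 at 12 (42.9%, against 17.6%). Of 16 sites at starts, 5 were shared (31.2%), near the 31.4% of start sites over all genes with a listed start. Another 4 were in replicate 1 alone and 7 in replicate 2 alone.

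**Figure D2:**
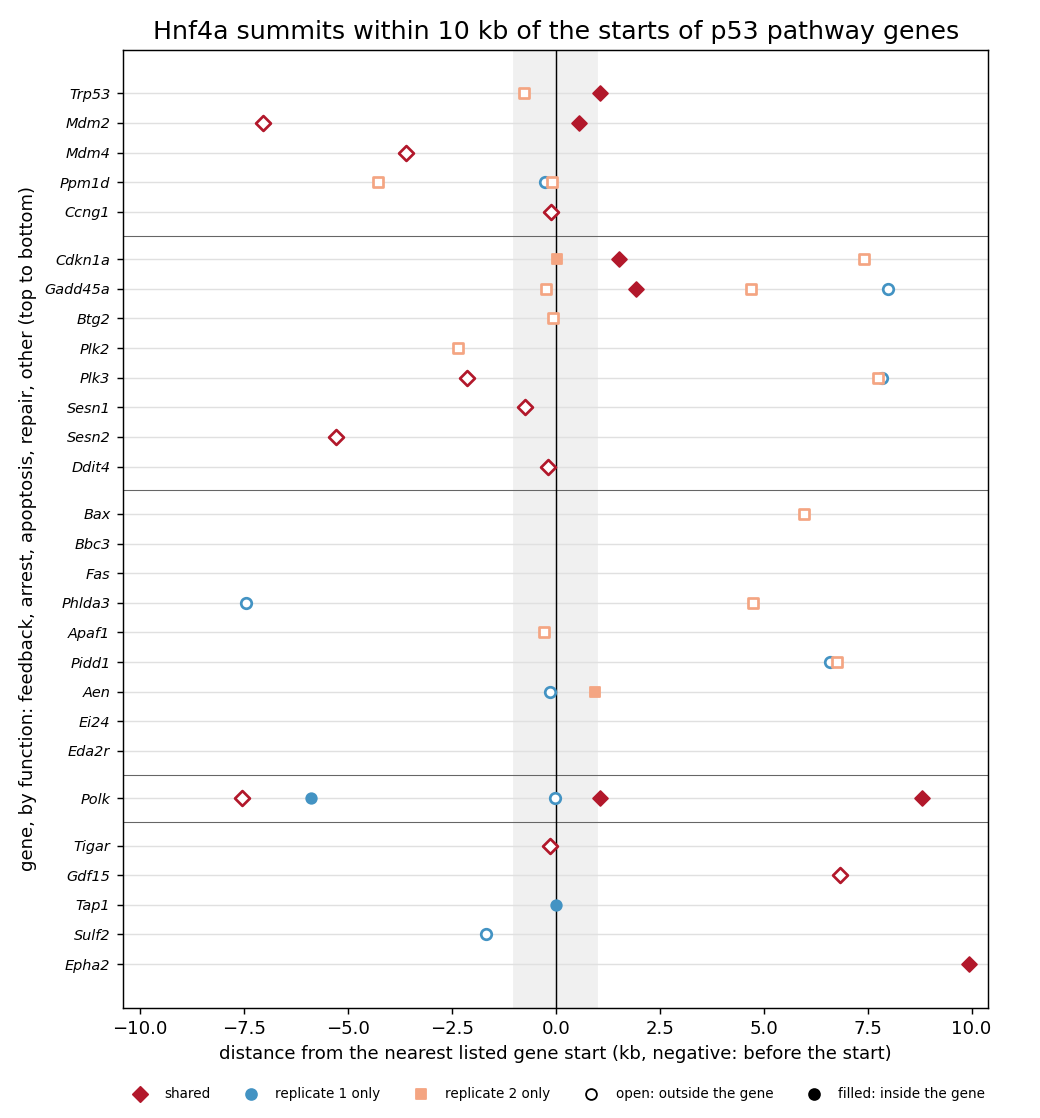
Each row is 1 of the 28 genes with a listed start; the horizontal axis is the distance in kb from the nearest listed start, and symbols are shared regions (diamonds) and summits of replicate 1 (circles) or replicate 2 (squares) alone, filled inside the gene. The shaded band is 1 kb on either side of the start, which holds 5 shared regions, none of them in the apoptosis group.

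Inside the genes, over 1 kb from a start, there were 13 sites, of which 8 were shared (61.5%, against 31.2% of the 16 sites at starts). Over all genes with a listed start, the shares ran the other way, with 24.3% of 11707 interior sites and 31.4% of 4585 start sites shared. The shares at starts were alike (31.2% and 31.4%), so the opposite order rests on the interior sites. A higher shared percentage beside these genes was favoured beforehand, because the list extends one selected on shared sites within 10 kb. The opposite order is therefore a description only. The shared interior sites lay in Trp53, Cdkn1a, Gadd45a, Ppm1d, Polk, Epha2 and Apaf1, with 2 in Polk. Their median score was 9.18 in replicate 1 and 10.8 in replicate 2, and that of the 5 start regions was 8.84 and 8.25. Over all genes the medians were 9.89 and 9.30 at shared interior sites and 10.3 and 9.69 at shared start sites. The ranges of interior sites (7.70 to 16.3 and 3.85 to 28.6) and start sites (5.48 to 15.4 and 5.63 to 12.7) overlapped in both libraries. With so few sites, several from 1 gene, the difference was not tested.

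**Figure D3:**
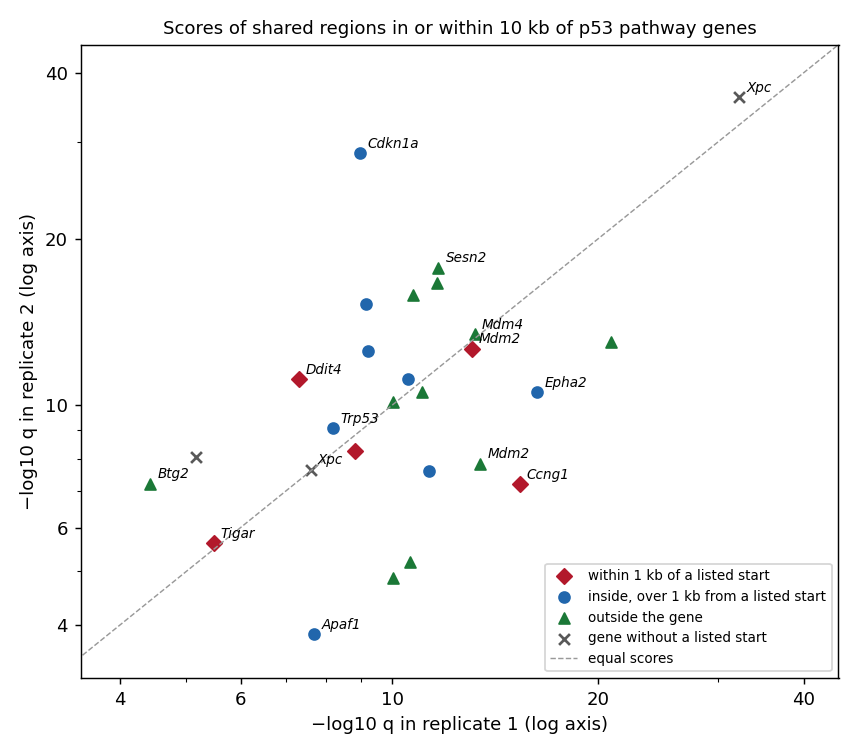
Points are the 27 shared regions in or within 10 kb of the 36 genes, with the −log10 q of replicate 1 on the horizontal axis and of replicate 2 on the vertical axis, both logarithmic; symbols give the position and the dashed line equal scores. Xpc is highest in both libraries, and Cdkn1a lies farthest above the line.

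The summits beside these genes coincided between replicates in 26 of 50 cases in replicate 1 (52.0%, 95% exact binomial interval 37.4 to 66.3) and 26 of 49 in replicate 2 (53.1%, 38.3 to 67.5), against 44.4% and 40.8% beside all protein-coding genes. The intervals cover counting error only, and the difference was not tested. The list extends one selected on shared sites within 10 kb, so a higher share beside these genes was favoured beforehand. Scores of the 26 shared regions were typical of shared regions within 10 kb of any gene, with medians of 10.6 in replicate 1 and 10.6 in replicate 2, against 9.98 and 9.63. Of the 27 regions, 11 scored higher in replicate 1 and 16 in replicate 2, and the summits of both libraries stood a median of 21 bp and at most 89 bp apart. The closest pair that failed the 100 bp limit stood 104 bp apart beside Plk3, inside the neighbour Tctex1d4 (6.08 and 9.06).

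Summits of single lists were counted for the 15 genes without a shared region in the gene or within 10 kb. In replicate 1, 10 of them had 15 summits scored 3.43 to 16.4, and in replicate 2, 11 had 11 summits scored 2.95 to 11.3. This was not counted over all genes without a shared region, so whether these counts are usual is not known. Pmaip1 and Ei24 had no summit of either list there.

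Further genes of the pathway were taken from 2 lists by their role, with the result for Cdkn2a known beforehand. Of 15 genes upstream of p53, such as the damage kinases, 2 had a shared region within 10 kb (13.3%, against 20.6% of all genes) and 3 had one inside the gene (20.0%, against 13.7%), and 8 had one within 50 kb (53.3%, against 46.8%). The 2 within 10 kb were Cdkn2a, which encodes the Mdm2 inhibitor Arf, with a region in its body (5.16 in replicate 1 and 8.67 in replicate 2), and the checkpoint kinase gene Chek2, with a region 4989 bp away (3.91 and 5.44) that lies inside Hscb. These 2 scored below the medians of shared regions near any gene. The other 2 genes with a shared region inside, named after their values were seen, had higher-scored ones farther than 10 kb from an end. The p53 kinase gene Hipk2 held 4 shared regions, the best scored of them 1702 bp after a start (25.7 and 37.7), and Cop1, which encodes a ubiquitin ligase for p53, held 1 (20.2 and 19.7). Of 30 further p53 targets, 10 had a shared region within 10 kb (33.3%, against 20.6%) and 19 within 50 kb (63.3%, against 46.8%). Inside the gene 4 of the 30 had one (13.3%), near the 13.7% of all genes. Cx3cl1, a chemokine, had the best-ranked one, 3220 bp beyond its end (59.2 and 36.4). Fdxr, a mitochondrial reductase, had a region 198 bp before its start (23.7 and 19.1). Gpx1, a glutathione peroxidase, had a region 2230 bp from its end (28.3 and 14.98), and Slc19a2, a thiamine transporter, had one within its body (12.7 and 18.1). The share of further targets was lower than that of the 36 genes in all 3 windows, and the difference was not tested. The 36 genes extend a list selected on its share within 10 kb, so a higher share in them was favoured beforehand.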

How the data were processed

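Hnf4a ChIL-seq was analysed in 1 group of 2 replicates. Per the submitters' processing notes, the authors used MACS2 2.2.9.1, HISAT2 2.0.5 and fastp 0.23.4, with build mm10. The deposited lists give 1-bp summits called per library, with a −log10 q-value each, and a q threshold of 0.01 stands in the peak names. Use of a control library, removal of duplicates and read depth are not given in the sources used here. Positions are 1-based.

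Summits within 100 bp of the next were merged, and a region with summits of both replicates counted as shared, placed by its midpoint. Genes came from RefSeq GRCm38.p6, the assembly of mm10, and starts and strand from its promoter windows, which matched 28 of 36 members. Members, groups and lists were chosen with earlier results of these data known, so no test was made; the shares of summits found in both lists have 95% exact binomial intervals. Regions in or within 10 kb of members were named, with the genes of each further list, at most 4, whose shared region within 10 kb ranked best. Sequences are 3 start windows that hold a shared region and that of the first Cdkn1a start, which holds none. Counts were repeated at other sharing distances, windows and score limits. Scripts were tested on simulated data. Python 3.11.15, numpy 2.4.6, pandas 2.3.3, scipy 1.17.1 and matplotlib 3.10.9 were used.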

Additional observations from a re-analysis of the deposited data

How the results depend on the processing

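No paired analysis was possible because there is 1 group. The count of 20 genes with a shared region within 10 kb ran over the planned sharing distances, windows and score limits from 14 with the best-scored 10000 summits (against 12.0% of all genes) to 24 at a sharing distance of 500 bp (against 25.4%), and was 23 within 20 kb (against 29.7%). With 1 list alone it was 31 without replicate 1 and 29 without replicate 2, against 41.9% and 39.4% of all genes. The count inside genes, 8 with both lists, was 11 without replicate 1 and 14 without replicate 2. The shares of all genes there were 28.4% and 26.3%, so the count of 11 lies near that of all genes. The count at starts, 5 of 28 within 1 kb (against 8.83% of all genes with a listed start), was 3 within 500 bp (against 7.94%), 9 within 2000 bp (against 10.0%) and 2 with the best-scored 10000 summits (against 5.07%), so the counts of 3 and 2 lie near the shares of all genes. With single lists the count at starts was 12 without replicate 1 (against 17.6%) and 9 without replicate 2 (against 18.2%). The share of summits beside these genes that were shared, 52.5% over both lists, was 38.4% at a sharing distance of 50 bp, 60.6% at 200 bp, 65.7% at 500 bp, 56.5% with −log10 q of 5 or more and 56.2% with the best-scored 10000 summits. The same share beside all genes was not taken at these other settings. Without olfactory receptor genes, 21.6% of all genes had a shared region within 10 kb, against 20.6% with them. The apoptosis count of 1 was 0 at 50 bp (against 15.2% of all genes) and 0 with the best-scored 10000 summits (against 12.0%). It was 3 at 200 bp (against 24.0%) and 500 bp (against 25.4%), near the shares of all genes. The repair count of 2 was 4 at 500 bp. Among the other targets, 5 became 3 with the best-scored 10000 summits (against 12.0% of all genes). With single lists all 4 repair genes counted, against 41.9% and 39.4% of all genes. The cause of these changes was not tested. Unknown depth limits what absence from a list can mean.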
